A study of Mus musculus with 22 samples.

Results

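Feces and small intestine of unirradiated mice were compared by the microRNAs (miRNAs) they held. The comparison used the 4 arrays titled feces at 0 Gy and the 4 titled intestine at 0 Gy, which make up 8 of the 22 arrays of the series, and all 1881 mouse miRNAs of the Agilent array. All mice were male and 8 weeks old, and received X-rays of 0 or 10 Gy at 1.0 Gy/min. Neither group used here was irradiated, no strain or genotype is given in the labels, and no agent other than X-rays is named. The remaining arrays hold feces, small intestine and serum of irradiated mice and serum of unirradiated mice. Feces were collected directly into tubes and small intestines were frozen, with no separation of layers or cell types described. Whether the samples of one group are from different animals is not stated, and the p-values therefore cover only variation between samples, some of it possibly technical. Each sample type lay on 1 slide, and RNA was quantified by absorbance for intestine and by a fluorescent dye for feces. Sample type therefore cannot be told apart from slide or from the way the RNA was measured out.

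A miRNA is a short RNA cut from a hairpin precursor, from its 5′ arm (5p) or its 3′ arm (3p). It is loaded into an Argonaute protein and represses messenger RNAs that match its seed, bases 2 to 8 of the mature miRNA. Many miRNAs mark a cell type: the miR-192, miR-194 and miR-200 families mark epithelium of the gut, miR-143 and miR-145 smooth muscle, miR-126 endothelium and miR-142 blood cells. Feces hold shed and secreted host material along with microbes and food residue, and extracellular miRNAs in them have been studied as markers of the gut.

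The mature sequences of the miRNAs that were among the most different are given from RefSeq (GRCm38.p6), 5′ to 3′, with the seed in capitals. Those higher in feces were rich in guanine, as the following show.
miR-483-5p: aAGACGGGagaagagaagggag
miR-7088-5p: gCAAGUGGuggugaggaggggaaac
miR-7118-5p: uGGGGAAGgcgggagagggaac
miR-7052-5p: uGUGGGAAgguggaggccuuu
miR-762: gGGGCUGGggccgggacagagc

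Those lower in feces are shown as families, since the members shown for each seed were called in the same direction. The first pair is the let-7 family, then come miR-192 and miR-215, 3 members of the miR-200 family, 2 of the miR-15/16 group, and miR-194 and miR-126.
let-7a-5p: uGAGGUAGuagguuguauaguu
let-7i-5p: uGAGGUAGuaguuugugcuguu
miR-192-5p: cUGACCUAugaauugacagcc
miR-215-5p: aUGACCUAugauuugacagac
miR-200b-3p: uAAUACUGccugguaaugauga
miR-200c-3p: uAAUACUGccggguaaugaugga
miR-429-3p: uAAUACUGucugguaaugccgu
miR-15b-5p: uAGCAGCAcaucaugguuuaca
miR-16-5p: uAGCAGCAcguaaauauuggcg
miR-194-5p: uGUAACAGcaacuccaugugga
miR-126a-3p: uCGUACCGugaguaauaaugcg

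Arms of the same hairpin that differed in opposite directions are shown as 3 pairs.
miR-30c-5p: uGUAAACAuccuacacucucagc
miR-30c-2-3p: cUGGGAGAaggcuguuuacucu
miR-183-5p: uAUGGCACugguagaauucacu
miR-183-3p: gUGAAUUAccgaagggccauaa
miR-193b-5p: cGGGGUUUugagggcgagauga
miR-193b-3p: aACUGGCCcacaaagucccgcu

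More miRNAs were detected in feces than in intestine. Detection on an array required 1 or more probes of the miRNA with 50% or more of their spots flagged well above background. It thus refers to probe signal, and the source of the RNA that gave this signal was not tested. The feces arrays detected 468, 378, 675 and 585 miRNAs in replicates 1 to 4, and the intestine arrays 298, 295, 285 and 300. The groups did not overlap, and their means were 526.5 ± 130 (SD, n = 4) and 294.5 ± 6.66 (SD, n = 4), with an exact two-sided permutation p of 0.0286, the smallest that 4 against 4 allows. The summed processed signal of detected miRNAs was 719992, 476962, 1780494 and 1086236 scanner units in feces and 314203, 295063, 336605 and 340061 in intestine. Feces were 3.16-fold higher on average (exact permutation p = 0.0286). The 4 feces arrays spread widely and the 4 intestine arrays lay close together, and replicate 3 of feces stood apart with the most detected miRNAs and the highest signal.

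The 2 sample types shared little of their pattern. Among 146 miRNAs detected on all 8 arrays, Pearson correlations of the scaled log2 signal ran from 0.902 to 0.969 between feces arrays and from 0.969 to 0.995 between intestine arrays. Between a feces and an intestine array they ran from -0.22 to 0.11. These are across miRNAs, which are not independent replicates. For all tests each array was divided by its 75th percentile over those 146 miRNAs, so a difference is relative to them, and values were raised to a floor of -7.32 on the scaled log2 scale.

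Nearly every miRNA that could be tested differed between feces and intestine. The test took the 496 miRNAs detected on at least 4 of the 8 arrays, and 448 of them (90.3%) passed at an adjusted p below 0.05 by limma with Benjamini-Hochberg adjustment. In feces 265 (53.4%) were higher and 183 (36.9%) lower, while 48 did not pass. The 2 groups did not overlap for 439 miRNAs (88.5%), with feces above for 259 (52.2%) and below for 180 (36.3%). The median log2 difference over the tested miRNAs was 1.20. It was 2.60 without scaling and -0.27 when the percentile was taken over miRNAs detected on all 22 arrays. The direction of small differences and the size of large ones therefore depend on the scaling. That last scaling gave 184 higher and 229 lower, and correcting the median spot intensity by normexp gave 96 higher and 227 lower.

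Many calls rest on miRNAs detected in 1 sample type only, where the floor sets the size of the fitted difference. Where all 4 values of a group lie at the floor, its SD is 0. The SE and p-value then hold no variation from that group. Among the 496, 192 were detected on all 4 feces arrays and no intestine array, and 176 of them were called higher in feces, while 16 did not pass. A further 76 were detected on all 4 intestine arrays and no feces array, and all 76 were called lower. These 192 and 76 passed the filter through 1 sample type alone, which largely set the direction of their calls. The other 82 had mixed detection, with 18 higher and 56 lower. Of the 146 detected on all 8 arrays 122 passed (83.6%), 71 higher (48.6%) and 51 lower (34.9%). The remaining 1385 miRNAs of the array were not tested; 1071 of those were detected on none of the 8 arrays and 314 on 1 to 3. With the 265 miRNAs not detected in the lower group placed at the bound defined below, or at 0 where none could be given, the median log2 difference over the 496 was 0.04. Of 340 called miRNAs with more than 1 bright probe, 13 had probes of opposite sign. The 192 seen in feces alone made up 7.2 to 13.3% of the summed signal of each feces array. The 76 seen in intestine alone made up 3.84 to 4.57% of each intestine array.

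**Figure D1:**
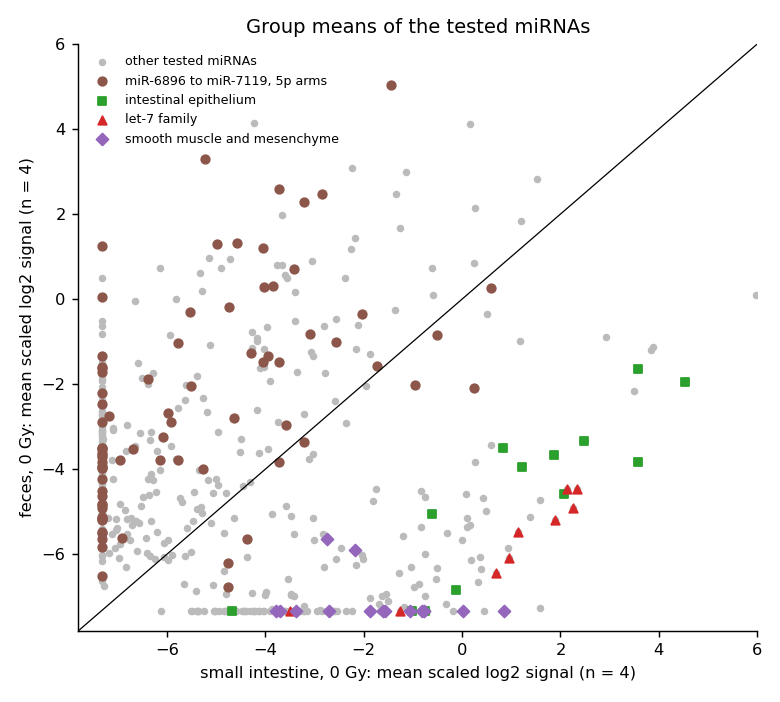
Each point is 1 of the 496 tested miRNAs, at its mean scaled log2 signal over the 4 intestine arrays (x) and the 4 feces arrays (y), and the line marks equal values. Points along the left and lower edges lie at the floor of -7.32; the 5p arms of miR-6896 to miR-7119 lie mostly above the line, and epithelial, let-7 and smooth muscle miRNAs all below it.

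The miRNAs highest in feces relative to intestine included miR-483-5p, whose hairpin lies in an intron of the growth factor gene Igf2. Its summed signal was 33130.0, 22523, 108843 and 79267 in feces replicates 1 to 4 against 63.4, 35.95, 52.1 and 43.3 in intestine. All feces arrays exceeded all intestine arrays, by a log2 difference of 8.36 ± 0.24 (SE; limma adjusted p = 2.5e-09), or 329.5-fold. The other arm, miR-483-3p, was detected on all 4 feces arrays and no intestine array, and its log2 difference of -0.15 ± 0.30 did not pass. miR-7118-5p, from the block of hairpins numbered miR-6896 to miR-7119, read 65332, 49283, 161009.9 and 151283 in feces against 378, 247, 393 and 305 in intestine. It was well above background on all 8 arrays, and feces were 90.1-fold higher (log2 6.49 ± 0.26, limma adjusted p = 1.1e-08). Across the scalings tried this log2 difference ran from 4.81 to 8.18, and that of miR-483-5p from 6.68 to 10.05.

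miR-7088-5p read 24192, 9421, 110059 and 25493 in feces and 32.7, 22.9, 27.4 and 15.4 in intestine, where it was detected on 2 of 4 arrays. Its log2 difference was 8.54 ± 0.30, and replicate 3 of feces was the highest array. miR-7020-5p, detected on all 8 arrays, read 12665, 5153, 68690.4 and 19285 in feces and 95.4, 61.2, 71.5 and 49.995 in intestine, a log2 difference of 6.30 ± 0.29. Both showed no overlap between the groups. Their unscaled signals followed the order of the summed signals of the feces arrays, with replicate 3 highest and replicate 2 lowest.

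Several others were not well above background on any intestine array, so the fold is given as a lower bound. Here and below, such bounds hold only for the main scaling and background. For each probe well above background on every array of the brighter group, that group's mean was set against, per array of the dimmer group, the higher of the probe's own signal and the lowest signal among probes well above background. The smallest ratio over the probes is given. For miR-7052-5p the signals were 4340.3, 3548, 11342 and 12269.8 in feces and -2.80, -1.91, -4.82 and -3.73 in intestine, and feces were at least 81.6-fold higher (fitted log2 difference 8.57, limma adjusted p = 2.7e-09). miR-6370 was at least 57.9-fold higher, with 2620.5, 1690.0, 11741 and 9983 in feces, and miR-1896 at least 29.7-fold higher. The bounds were 24.6-fold for miR-1945, 21.9-fold for miR-3067-3p, 18.4-fold for miR-7223-5p and 9.45-fold for miR-6942-5p. miR-762 read 7734, 619.7, 18308 and 3066 in feces, a wide spread, and its bound was 5.07-fold. Fitted differences of such miRNAs, with their SEs and p-values, depend on the floor. With normexp the log2 differences of miR-7052-5p, miR-6370 and miR-3067-3p were 4.10, 3.46 and 2.26, which is below their bounds. The 12 miRNAs named above stayed called in the same direction under every alternative in which they were tested.

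The 5p arms of the miRNAs numbered miR-6896 to miR-7119 accounted for much of the fecal signal. The array holds 206 of them, and 79 were tested, of which 69 were higher in feces, 5 lower and 5 did not pass, with a median log2 difference of 3.09 against 1.20 over all tested miRNAs (1.58 against 0.04 with undetected members at their bounds). Of the 79, 77 were detected on all 4 feces arrays and 32 on all 4 intestine arrays, so many passed the filter through feces alone. Together the 206 gave 23.1 to 36.5% of the summed signal of a feces array and 1.2 to 2.07% of that of an intestine array. Of the 3p arms of the same hairpins 14 of 204 were tested, 10 were higher, none was lower, and their median was 1.30, or 0 with 13 of them at their bounds (2 higher and 3 lower with the 22-array scaling). All 14 were detected on all 4 feces arrays and none on all 4 intestine arrays. They passed the filter through feces, which favours a call of higher. Over all tested miRNAs 53.4% were higher. With normexp the medians of the 5p and 3p arms were 0.10 and -0.20, with 29 and 0 members higher. The 5p arms lower in feces included miR-7042-5p at -2.33 ± 0.40 and miR-6998-5p at -2.004 ± 0.34.

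**Figure D2:**
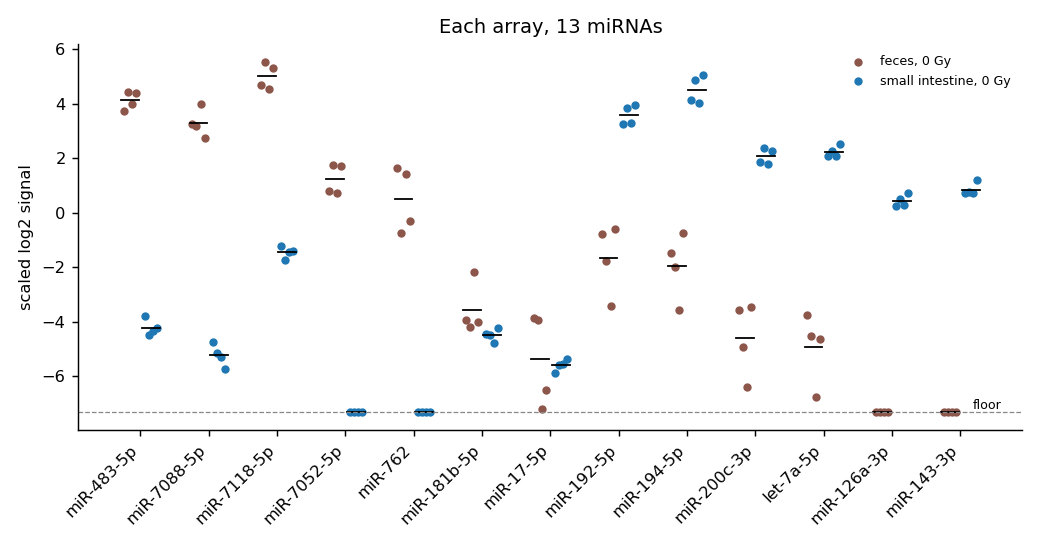
Scaled log2 signal of 13 miRNAs on each of the 4 feces and 4 intestine arrays, with group means as horizontal bars and the floor as a dashed line. The groups overlap for miR-17-5p and nearly meet for miR-181b-5p, and the feces points of miR-192-5p, miR-194-5p and miR-200c-3p are spread more widely than the intestine points.

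Epithelial miRNAs were lower in feces without exception among those tested, yet most were still measured there. Of 15 listed, 13 were tested and all 13 were lower, with a median log2 difference of -5.82; miR-205-5p and miR-147-3p were detected on no array. miR-194-5p, abundant in absorptive epithelium, read 904, 264, 576 and 2224 in feces and 15717, 23754, 17494 and 26897 in intestine (log2 -6.47 ± 0.55). miR-192-5p, encoded beside a copy of miR-194, read 1466, 304, 633 and 2456 against 8444, 11660.3, 10519.9 and 12649, a log2 difference of -5.23 ± 0.56. Every intestine array exceeded every feces array for both. miR-215-5p, which shares the miR-192 seed, differed more, at -7.39 ± 0.49, with 266, 88.2, 178 and 402 in feces and 7096, 12174, 9473 and 15421 in intestine.

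The miR-200 family, which represses the transcription factors ZEB1 and ZEB2 and so keeps epithelial character, was detected on all 8 arrays in each of its 5 tested 3p members listed here. miR-200c-3p read 211, 34.3, 81.5 and 337 in feces against 3208, 4232, 3691 and 3922 in intestine (log2 -6.66 ± 0.59, limma adjusted p = 2.1e-06). The log2 differences of miR-200b-3p, miR-141-3p, miR-429-3p and miR-200a-3p were -5.82, -5.52, -5.17 and -4.33. In all of them the highest feces array was replicate 4, and the SE was 0.59 to 0.68. miR-375-3p, known from endocrine and epithelial cells, was -6.73 ± 0.36 and was detected on 2 feces arrays. miR-31-5p was not well above background in feces and at least 49.4-fold lower there. The 15 listed miRNAs summed to 15.1 to 22.7% of the signal of an intestine array and 0.121 to 0.802% of that of a feces array. In bulk samples such as these, fewer cells of a type and less RNA per cell cannot be told apart.

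Smooth muscle and mesenchymal miRNAs were mostly below detection in feces. All 14 tested of 15 listed were lower, with a median of -5.58 (-4.28 at the bounds), and 12 of them were detected on all 4 intestine arrays and no feces array. Those 12 passed the filter through intestine alone, so their direction was largely set beforehand. miR-143-3p, which acts in smooth muscle differentiation, read 1458, 1383, 1753 and 1891 in intestine and between -7.01 and -6.40 in feces. It was at least 179-fold lower in feces (limma adjusted p = 8.2e-10). All 4 feces values of miR-143-3p lay at the floor, so this p-value holds no variation between feces samples. miR-125b-5p, miR-199a-3p and miR-195a-5p were at least 20.6-, 49.9- and 42.2-fold lower. The muscle miRNAs miR-133a-3p and miR-133b-3p were the 2 detected on all feces arrays, and their log2 differences were -2.89 ± 0.25 and -3.72 ± 0.27. miR-126a-3p, the endothelial miRNA of the Egfl7 gene, read 1065, 1163, 1295 and 1346 in intestine, was below background in feces and was at least 133-fold lower. miR-221-3p, the other of the 2 tested endothelial miRNAs of 4 listed, was at least 5.61-fold lower.

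Leukocyte miRNAs were lower in feces with 1 exception. Of 10 tested of 11 listed, 9 were lower and the median was -4.36 (-3.65 at the bounds). miR-142a-3p, expressed throughout the blood lineages, read 2.47, 2.65, 12.5 and 8.72 in feces and 796, 549.6, 1142 and 752 in intestine and was at least 61.6-fold lower. miR-342-3p and miR-146a-5p, also undetected in feces, were at least 32.2- and 4.88-fold lower, and miR-15a-5p differed by -5.66. miR-223-3p, a miRNA of neutrophils and macrophages, was among the less reduced, with 14.5, 21.4, 113 and 76.9 in feces and 155, 217, 249.6 and 283 in intestine (log2 -4.10 ± 0.40), and 3 of 4 feces arrays detected it. miR-181b-5p did not pass: it read 161, 57.4, 1496 and 233 in feces and 40.02, 35.9, 38.5 and 42.8 in intestine, a log2 difference of 0.92 with a 95% confidence interval from -0.02 to 1.86 (limma adjusted p = 0.059). After scaling, 3 of the 4 feces arrays lay close to the intestine arrays and replicate 3 was far above them. Without that array the difference was 0.46 and was called higher.

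The red cell miRNA miR-451a was at least 13.6-fold lower in feces, and was the 1 tested of 4 erythrocyte miRNAs on the array. Of the others, miR-486a-5p was detected on 2 feces arrays and no intestine array. Both liver miRNAs on the array, miR-122-5p and miR-122-3p, were detected on none of the 8 arrays. Of 4 exocrine pancreas miRNAs, miR-216a-5p and miR-216b-5p were detected on no array. miR-148a-3p was lower (-5.27 ± 0.41). miR-217-5p, an acinar cell miRNA, read 19.3, -4.20, 258 and 20.6 in feces and below 0 on every intestine array, a log2 difference of 0.73 ± 0.53 that did not pass. It was 0 without feces replicate 3. Among 7 neuronal miRNAs 1 was tested, miR-128-3p, 4.85-fold lower in feces. That is its fitted fold, with all feces values at the floor, and with normexp its log2 difference was -0.42. The untested miR-124-3p and miR-138-5p were each detected on 1 feces array and no intestine array. miR-218-5p, also untested, was detected on 1 intestine array and no feces array. Of the 5 miRNAs encoded in the Hox gene clusters 2 were tested, and both were lower, miR-10a-5p at -6.08 with detection on 1 feces array and miR-10b-5p by at least 9.02-fold. Among those not tested, miR-196a-5p and miR-196b-5p were each detected on 2 feces arrays and no intestine array.

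**Figure D3:**
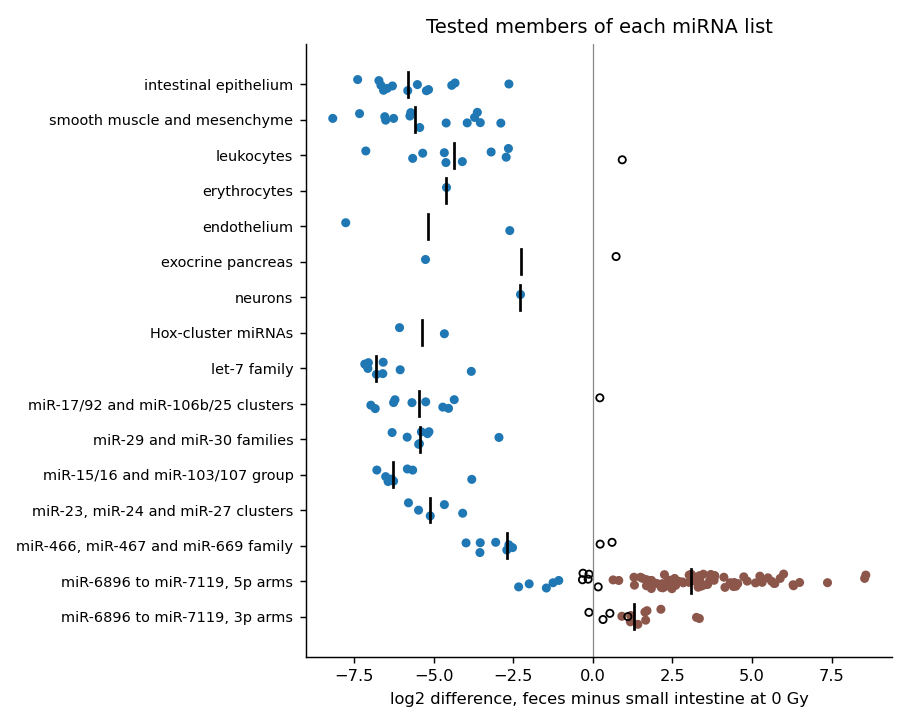
Each point is a tested miRNA of the list named at the left, at its log2 difference of feces minus small intestine at 0 Gy, with filled points past an adjusted p of 0.05, brown for higher and blue for lower in feces, and open points not past it. Black bars are medians; every cell type and broadly expressed family lies to the left of 0 apart from single open points, and the miR-6896 to miR-7119 lists lie mostly to the right.

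Broadly expressed families were lower in feces, with medians from -6.80 for let-7 to -5.11 for the miR-23, miR-24 and miR-27 clusters. The let-7 family, which restrains growth and is itself blocked by LIN28, was lower in all 9 members, with a median of -6.80. let-7a-5p read 183, 45.1, 63.1 and 151 in feces and 3808, 3928, 4557 and 4697 in intestine (log2 -7.17 ± 0.55, limma adjusted p = 7.3e-07), and no feces array reached any intestine array. let-7i-5p, let-7f-5p and let-7d-5p differed by -7.13, -7.07 and -7.06, and miR-98-5p, undetected in feces, was at least 8.40-fold lower. Probes of such closely related miRNAs can share signal, so the values of single let-7 members are uncertain. All 8 tested members of the miR-29 and miR-30 families were lower, with a median of -5.42. miR-29a-3p, whose family represses collagens, was -6.31 ± 0.74, and miR-30d-5p was the least reduced at -2.95 ± 0.26.

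All 8 of the group of miR-15, miR-16, miR-103 and miR-107 were lower (median -6.30), including miR-15b-5p at -6.79 ± 0.45 and miR-16-5p, which slows the cell cycle, at -6.44 ± 0.47. The 5 of the miR-23, miR-24 and miR-27 clusters were all lower (median -5.11), with miR-27b-3p at -5.80 and miR-24-3p at -5.48. The miR-17/92 and miR-106b/25 clusters favour proliferation, and of 10 of their miRNAs tested 9 were lower (median -5.47). They were led by miR-19b-3p at -6.98 ± 0.38 and miR-92a-3p at -6.84 ± 0.19. miR-17-5p did not pass. It read 171, 67.4, 46.4 and 41.5 in feces and 14.9, 17.1, 22.9 and 19.6 in intestine, where the other arm of its hairpin, miR-17-3p, was also detected and was at least 9.15-fold higher than in feces. Its unscaled signal was higher on every feces array, but after scaling the groups overlapped. On the scaled log2 scale the feces SD of miR-17-5p was 1.72, and the interval of its difference ran from -1.40 to 1.83.

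The large mouse family numbered miR-466, miR-467 and miR-669, taken here by name and with many members in the gene Sfmbt2, was tested in few members. Of its 58 members on the array 38 (65.5%) were detected on none of the 8 arrays, against 56.9% of all array miRNAs, 9 were tested, 7 were lower and 2 did not pass, with a median of -2.71. miR-669p-3p was -3.99 ± 0.45 and miR-466q -3.55 ± 0.31, and miR-669n at 0.23 did not pass. The summed unscaled signal of all 58 was 2581 to 12529.9 in feces and 1523 to 2325 in intestine, higher on every feces array, and made up 0.359 to 1.15% of the signal of a feces array and 0.462 to 0.751% of that of an intestine array. Its members share long stretches of sequence, and single values are uncertain. Without scaling, 2 of the family were called higher. miR-3968, the largest fall by the fitted difference, read 2109.7, 2315, 2843 and 3637 in intestine and 13.5, 7.78, 6.70 and 16.6 in feces, and was detected on 1 feces array; 3 of its 4 feces values lay at the floor, so the fitted -8.84 depends on it.

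No member of the epithelial, smooth muscle, erythrocyte, endothelial, neuronal, Hox-cluster, let-7, miR-29/30, miR-15/16 or miR-23/24/27 lists was called higher in feces under any alternative tried. For members detected in intestine alone this was largely set by the filter. Without scaling, where feces had the higher total, the medians were -4.14 for epithelium, -4.93 for smooth muscle and -5.40 for let-7. With normexp they were -3.78, -1.71 and -4.04, and -1.18 for leukocytes. Without feces replicate 3 all tested members of these lists were still lower, and 68 of the 79 tested 5p arms of miR-6896 to miR-7119 were higher.

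The base composition of the miRNAs differed with their direction. RefSeq gave a sequence for 1608 of the 1881 miRNAs and for 427 of the 496 tested. Guanine made up a median 43.5% of the bases of miRNAs higher in feces, 23.8% of those lower, 36.4% of all tested and 26.3% of all on the array. The median of guanine plus cytosine was 62.8% in those higher and 45.5% in those lower. A run of GGGG, searched on the mature strand only, was present in 80 (34.5%) of those higher and 8 (5.16%) of those lower, and in 11.3% of all array miRNAs with a sequence. The same held among miRNAs detected on all 8 arrays, with medians of 50% guanine in those higher and 27.3% in those lower. These are descriptions, since miRNAs are not replicates.

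Read by guanine content, the share of tested miRNAs higher in feces was 25.6% of the 78 with up to 20% guanine and 18.5% of the 81 with 20 to 30%. It was 53.9% of 91 at 30 to 40%, 78.5% of 116 at 40 to 50%, and 93.4% of 61 above 50%. Of those 61, 57 were higher and 0 lower. Spearman's rho between guanine content and the log2 difference was 0.57 over the 427 tested and 0.594 over the 130 detected on all 8 arrays. For guanine plus cytosine it was 0.597 and 0.593, so the relation was not particular to guanine. The miRNAs share arrays, labelling and probe chemistry, and the part of these in the relation was not tested. Examples are seen among the sequences above: miR-762 and miR-7118-5p each have 13 guanines, and miR-192-5p and miR-215-5p have 4.

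**Figure D4:**
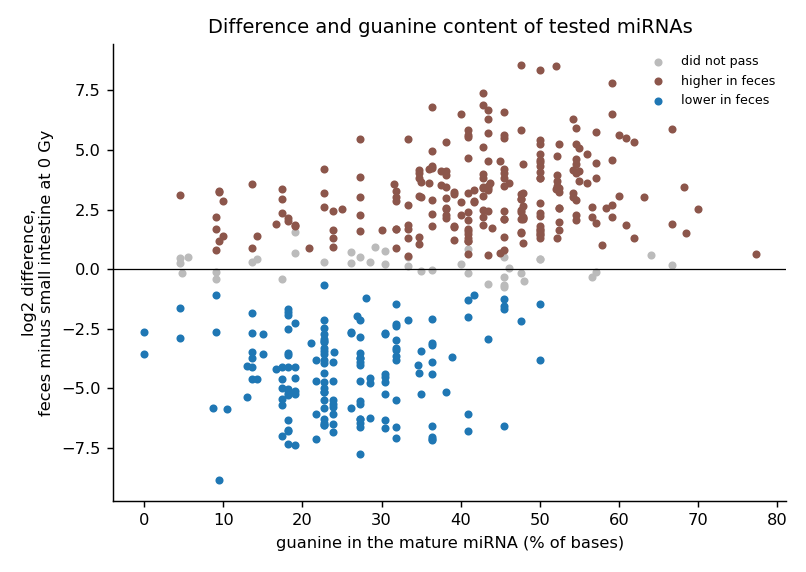
Log2 difference of feces minus small intestine at 0 Gy (y) against the share of guanine in the mature sequence (x) for the 427 tested miRNAs with a RefSeq sequence, coloured by call. Above 50% guanine 57 of 61 points are called higher and 0 lower, and the points called lower crowd below 40%.

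The 2 arms of one hairpin come from one transcript, and their calls were not always alike. Both arms were tested for 44 hairpins. Both were higher in 12, both lower in 13, and 1 or both did not pass in 12. In the other 7 the arms were called in opposite directions. miR-30c-5p differed by -5.84 ± 0.32 and miR-30c-2-3p was called higher, though its bound was under 1 and no fold is given. miR-30c-5p is also cut from the miR-30c-1 hairpin, so its signal is not that of 1 hairpin, and miR-30c-1-3p did not pass at -0.02 ± 0.41. The epithelial and sensory miRNA miR-183-5p was -3.43 ± 0.20 with detection on 1 feces array, and miR-183-3p, undetected in intestine, was at least 1.04-fold higher. For miR-193b the 5p arm, undetected in intestine, was at least 1.49-fold higher, and the 3p arm, undetected in feces, at least 3.82-fold lower. The remaining 4 were miR-139, miR-99b, miR-365-1 and miR-6937. In 6 of the 7 the arm richer in guanine was the one higher in feces, with miR-6937 the exception, and these hairpins were picked for their opposite calls. With normexp the difference of miR-6937-3p was -0.0304 (limma adjusted p = 0.864), which ends its opposite call. The normexp values of the other 6 hairpins are not given here, and over all tested miRNAs normexp lowered the number called higher from 265 to 96.

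Several sets with a shared seed went one way. The seed GAGGUAG of let-7 was lower in 9 of 9 tested miRNAs, AGCAGCA of the miR-15/16 group in 6 of 6 and AAUACUG of miR-200b, miR-200c and miR-429 in 3 of 3, where 36.9% of all tested miRNAs were lower. The guanine-rich seed AGGGAGG, held by miR-149-3p, miR-1943-5p and miR-7016-5p, was higher in 3 of 3, against 53.4% of all tested miRNAs. Of 4 miRNAs with the seed ACAUUCA, miR-181a-5p and miR-181c-5p were lower and miR-181b-5p and miR-181d-5p did not pass. The seed CCCUGAG was split, with miR-125a-5p and miR-125b-5p lower and miR-6394 higher. The seed AGUGCAA was split too: miR-130a-3p, miR-130b-3p and miR-301a-3p were lower, while miR-721 read 2389, 1241, 12437 and 3161 in feces and was at least 19.1-fold higher.

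Feces arrays also differed among themselves, and not in the same order for all miRNAs. Of the 265 miRNAs higher in feces, all detected on its 4 arrays, unscaled signal was highest on replicate 3 for 217 and lowest on replicate 2 for 246. Of the 51 lower miRNAs that all feces arrays detected, 30 were highest on replicate 4 and 47 lowest on replicate 2. Among the 9 epithelial miRNAs detected on all feces arrays, 8 were highest on replicate 4 and 9 lowest on replicate 2. The median ratio of highest to lowest feces array was 6.17 for the higher miRNAs and 8.42 for those epithelial ones. For the 146 miRNAs seen on all 8 arrays, the median SD of the scaled log2 signal was 0.52 in feces and 0.23 in intestine, and it was larger in feces for 127.

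Control probes on the same arrays were set beside the miRNAs. They are known here only by their names, and the files used here do not say what most of them detect. The sets dmr_3 and dmr_6 read alike in both sample types: dmr_3 gave 17398 to 19568 in feces and 17311 to 19432 in intestine (exact permutation p = 0.571), and dmr_6 had p = 0.714. dmr_285 and dmr_31a were 1.68- and 1.62-fold higher in feces, with no overlap. The sets hur_1, hur_2, hur_4, hur_6 and mr_1 were far lower in feces. hur_1 read 390, 93.1, 311.6 and 1609 in feces against 90170, 79214, 97779 and 97872 in intestine, and mr_1 read 176.4, 125.5, 364.1 and 394.3 against 15467, 16366, 16840 and 15571. Unscaled log2 differences of the 5 sets ran from -7.95 to -4.75 (exact permutation p = 0.0286 each, the smallest possible). Among the feces arrays all 5 sets were lowest on replicate 2 and highest on replicate 4.

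**Figure D5:**
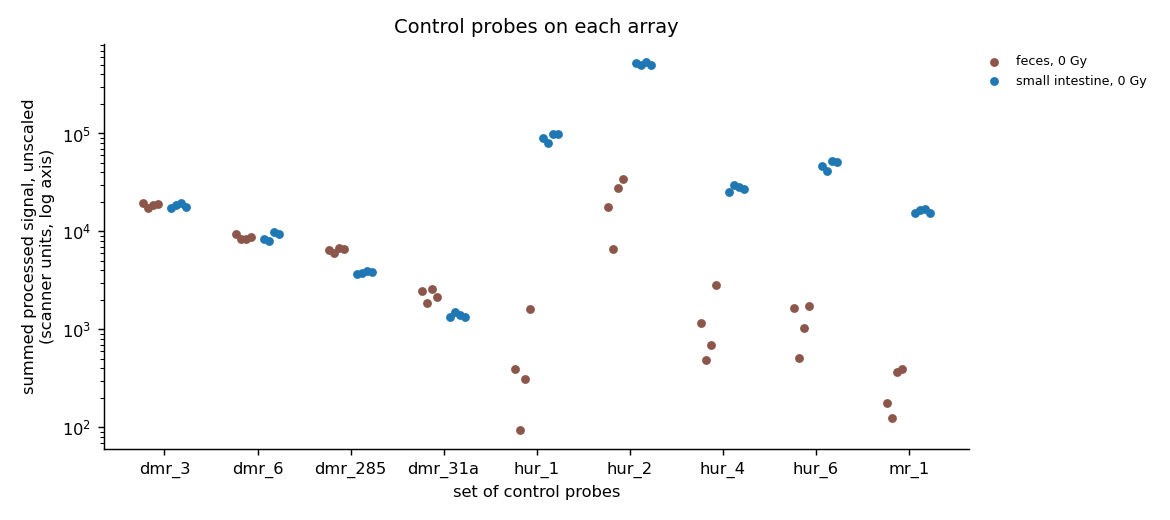
Summed processed signal (unscaled, log axis) of 9 sets of control probes on each of the 4 feces and 4 intestine arrays. The dmr_3 and dmr_6 points of both sample types lie together, the dmr_285 and dmr_31a points are 1.68- and 1.62-fold higher in feces on average, and the hur and mr_1 points are all lower in feces.

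The same contrast in mice that received 10 Gy gave a similar division. These arrays lay on the same 2 slides, and above they entered only the 22-array scaling and the alternatives that fitted further groups. Of 539 tested miRNAs 495 passed (91.8%), with 291 higher (54.0%) and 204 lower (37.8%) in feces. Of the 265 higher at 0 Gy 223 (84.2%) were also higher at 10 Gy, and they make up 76.6% of the 10 Gy list. Of the 183 lower at 0 Gy 173 (94.5%) were also lower, 84.8% of the 10 Gy list. All 13 tested epithelial miRNAs, 14 smooth muscle miRNAs and 9 let-7 members were again lower, with medians of -4.22, -6.07 and -6.30. miR-200c-3p and let-7a-5p, detected on all 8 of these arrays, were -4.76 ± 0.33 and -6.45 ± 0.37 at 10 Gy. Among miRNAs called at both doses only miR-3091-5p and miR-714 were called in opposite directions, and both are named after their values were seen. At 0 Gy they were detected on all 4 feces arrays and no intestine array, and no fold bound could be given. At 10 Gy miR-3091-5p was detected on all 4 intestine arrays and no feces array, and miR-714 on all 8 arrays.

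A test of whether the contrast itself differed between doses passed for 155 of 618 miRNAs (25.1%), with 51 more positive and 104 more negative at 10 Gy. miR-483-5p was 8.36 higher at 0 Gy and 5.997 at 10 Gy, a difference of -2.37 ± 0.34 (limma adjusted p = 0.00036). It was named for its large difference at 0 Gy, and that choice itself favours a smaller one at 10 Gy. For miR-192-5p and miR-194-5p the contrasts at 10 Gy were -3.88 and -5.43, and the differences from 0 Gy, 1.35 ± 0.72 and 1.04 ± 0.74, did not pass.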

How the data were processed

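Total RNA was labelled with Cy3 and hybridised to 1-colour Agilent mouse miRNA arrays. The deposited intensity values are scanner output made with Agilent Feature Extraction 11.5, per the submitters' processing notes and the file headers: a background-subtracted, linear processed signal per spot, not normalized between arrays, with median spot and background intensities. The deposited flags (other values, 0 or 1) mark spots well above background, outlying or saturated; 0 miRNA spots were saturated. In the authors' series value table all 58594 values per array lay within 1% of the processed signal.

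Of 4415 probes for 1881 miRNAs, spots not flagged as outliers were averaged per probe and summed over the probes of a miRNA. Each array was scaled to the 75th percentile of the 146 miRNAs that all 8 arrays detected, floored at the median over arrays of the lowest scaled detected value, and taken to log2. limma 3.58.1 (lmFit, eBayes; R 4.3.3) compared the 4 feces with the 4 intestine arrays, without covariates, over miRNAs detected on at least 4 arrays, with Benjamini-Hochberg adjustment at 0.05. Values per array were compared by exact permutation. The 10 Gy arrays had their own scaling, and the test between doses used all 16. The code was tested on simulated data. The number of arrays limits the precision. Sequences and their chromosomes came from RefSeq tables (GRCm38.p6), and base composition was counted in Python 3.11.15.

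Named miRNAs were the 12 largest rises and 12 largest falls among called miRNAs without overlap, plus up to 4 called members and the smallest difference that did not pass from each of 17 lists; other members are named as examples of those lists, arms or seeds, chosen after their values were seen. The members and lists were chosen with earlier results of these data known. Same-numbered samples did not deviate together (correlations of -0.30 to 0.31), so the numbers were not taken as pairs. Alternatives changed the scaling, background, filter, floor, probe summary, model and replicates. Scaling by the control probes dmr_3 and dmr_6 was added after seeing the data. Time after irradiation is not given in the sources used here, and serum arrays entered only the 22-array scaling and the fit of all 6 groups.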

Additional observations from a re-analysis of the deposited data

Results flagged for a closer look

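Among the groups of 4 arrays of the named miRNAs, 9 (8.41% of those examined) held an array far from the others by Dixon's criterion, where chance flags about 1 in 20. On the scaled log2 scale these were, in feces replicate 3, miR-7020-5p at 3.33, miR-215-5p at -5.26, miR-181b-5p at -2.19 and miR-217-5p at -4.73. In feces replicate 4 they were miR-106b-5p at -5.98 and miR-466q at -6.02. In intestine replicate 4 they were miR-6370 at -6.35, miR-143-3p at 1.22 and miR-375-3p at 0.23. For miR-217-5p, miR-106b-5p and miR-466q the other feces arrays lay at or near the floor. Ties at the floor narrow the spread of a group, so the rate of 1 in 20 need not hold there.

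The feces-minus-intestine difference changed between 0 and 10 Gy, by the limma test of that change, for 13 of the 65 named miRNAs. Over all miRNAs tested for this change it passed for 155 of 618 (25.1%), so the named miRNAs were not called more often. For the named miRNAs the changes of the difference were as follows. It was smaller at 10 Gy for miR-7088-5p (-2.40), miR-483-5p (-2.37), miR-3067-3p (-2.53), miR-7118-5p (-1.95), miR-1945 (-1.63), miR-1896 (-1.52) and miR-7020-5p (-1.42), all log2 changes of the difference. It was less negative for miR-142a-3p (0.92), miR-669p-3p (2.00), miR-466f-3p (1.97), miR-467f (1.79) and miR-466q (1.75), and more negative for miR-199a-3p (-0.92). These 13 were named for large differences at 0 Gy, so the choice itself favours a smaller difference at 10 Gy.

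Among the control probes, which are outside the miRNA comparison, 5 sets were lower in feces in unscaled log2 signal: hur_1 by -7.95, mr_1 by -6.08, hur_6 by -5.42, hur_2 by -4.82 and hur_4 by -4.75. Their part in the miRNA results was not tested.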

How the results depend on the processing

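The number of arrays and the slides limit these results: 4 arrays a group, 1 slide a sample type, and many miRNAs near background in 1 sample type. The counts of 265 higher and 183 lower stayed within 1.5 times of the main ones except as follows, where the cause was not tested unless stated. With normexp, which adds an offset of 50, 96 were higher. Testing only the 146 miRNAs detected on all 8 arrays left fewer to call, 67 higher and 51 lower. Leaving out 1 array at a time gave 262 to 325 higher and 178 to 185 lower; without feces replicate 3 there were 269 and 184. The difference in detected miRNAs was 182.5 to 281.5 (232 with all arrays) and in summed signal 439580.2 to 874091 (694438 with all arrays; 439580.2 without feces replicate 3), each with an exact permutation p of 0.0571, the smallest that 4 against 3 allows. Without scaling 305 were higher and 157 lower, and by the dmr_3 and dmr_6 probes 304 and 158. With the replicate block there were 269 higher and 184 lower; same-numbered samples correlated at -0.30, -0.16, 0.31 and 0.25. Within slide row 1, 256 were higher and 188 lower, and within row 2, 312 and 169. Among named miRNAs the sign turned with normexp for miR-217-5p (-0.84), miR-6937-3p (-0.0304), miR-7045-3p (-0.0856), miR-7115-3p (-0.11) and miR-7046-3p (-0.19), with the 22-array scaling for miR-669n (-1.45), and without scaling and by the control probes for miR-6943-3p (1.56 in both). The 22-array scaling also turned 10 calls and normexp 15. miR-466f-3p lost its call without scaling (-1.40), by the control probes (-1.39) and within slide row 2 (-2.19), and miR-7115-3p (0.46) and miR-7046-3p (0.02) with the 22-array scaling.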
